A study of Homo sapiens with 6 samples.

Results

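The genes described here code for the proteins that start plasminogen activation and blood coagulation at the cell surface, with several of their inhibitors. They were taken by symbol from a deposited table of 36651 genes and comprise PLAU, PLAUR, PLAT, SERPINE2, SERPINB1, SERPINB5, F3, TFPI and TFPI2, 9 genes in all, each with 1 row. The selection was made with the difference between the groups already known, so the differences of these 9 genes are given as a description and support nothing further. The cells were HCT116, an established line from a human colorectal carcinoma, and their polyA-selected RNA was sequenced in directional paired-end libraries. There were 3 control libraries, called wild type in the sample titles, and 3 libraries of a group called siMTA1 in the design text and CrMTA1 in the titles. MTA1 is a subunit of the nucleosome remodelling and deacetylase complex NuRD. The labels do not say which method lowered MTA1, whether a selected clone was used, what the control cells received, or whether replicates came from separate cultures. P-values therefore measure only the spread between these libraries, which may be technical.

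Urokinase, the product of PLAU, is a secreted serine protease that cleaves plasminogen to plasmin. It works at the cell surface when bound to its receptor, the product of PLAUR, and plasmin then degrades fibrin and matrix proteins. Tissue factor, the product of F3, is a membrane protein that binds factor VII and starts coagulation, and it is made by many carcinoma cells. Serpins trap serine proteases by a covalent, suicide-substrate mechanism, whereas inhibitors of the Kunitz type, such as those coded by TFPI and TFPI2, block the active site reversibly.

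Levels are in FPKM, a fragment count corrected for the length of the gene and the depth of the library. Differences were fitted with limma on log2(FPKM + 1), siMTA1 minus control, over the 12141 genes that averaged 1 FPKM or more, and a gene was called changed at an adjusted p under 0.05. MTA1 itself had levels of 65.90, 67.61 and 66.74 FPKM in the control group and of 44.55, 43.98 and 47.97 FPKM in the siMTA1 group (libraries 1, 2 and 3 of each, the order kept for every gene below), so that 68.2% of its control level remained (log2 difference −0.54, SE 0.06, limma adjusted p = 0.000376). An exact two-sided permutation test of these 6 values had a p of 0.1, which is the lowest value that such a design with 3 libraries a group can reach. Depth, inferred from the step size of low values, was 43400000 to 65300000 fragments in control and 57300000 to 67000000 fragments in siMTA1 libraries. Across genes, Pearson's r was 0.994 to 0.997 within a group and 0.988 to 0.992 between groups. In bulk RNA, fewer cells of a type and less RNA per cell cannot be told apart. The epithelial identity of the line showed in some of its markers, with EPCAM between 254.77 and 317.57 FPKM and KRT19 between 3105.61 and 3612.19 FPKM over the 6 libraries, although CDX2, an intestinal transcription factor, was at 3.91 to 5.05 FPKM, and the differentiated enterocyte genes VIL1 and LGALS4 did not exceed 0.04 and 0.05 FPKM.

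Upstream sequence is shown for the 3 genes called lower with siMTA1, PLAU, F3 and TFPI, and for SERPINB1, which had the largest rise. The stretches are those parts of the 250 bases before the RefSeq start that lie outside any GENCODE exon of the gene, 5′ to 3′ on the strand of the gene (RefSeq, GRCh38.p14). Capitals mark matches to the motifs searched.
PLAU (chr10:73910360-73910604, plus strand): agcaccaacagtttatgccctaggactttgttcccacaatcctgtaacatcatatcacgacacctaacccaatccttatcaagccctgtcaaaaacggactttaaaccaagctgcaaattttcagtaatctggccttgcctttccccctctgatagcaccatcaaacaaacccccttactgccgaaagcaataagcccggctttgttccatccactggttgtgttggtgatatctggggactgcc
F3 (chr1:94541801-94542009, minus strand): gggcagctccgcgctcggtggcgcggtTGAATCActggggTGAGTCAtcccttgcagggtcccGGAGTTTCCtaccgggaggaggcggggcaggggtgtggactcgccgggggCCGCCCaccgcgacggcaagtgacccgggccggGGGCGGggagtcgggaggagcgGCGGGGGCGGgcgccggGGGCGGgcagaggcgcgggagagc
TFPI (chr2:187554493-187554685, minus strand): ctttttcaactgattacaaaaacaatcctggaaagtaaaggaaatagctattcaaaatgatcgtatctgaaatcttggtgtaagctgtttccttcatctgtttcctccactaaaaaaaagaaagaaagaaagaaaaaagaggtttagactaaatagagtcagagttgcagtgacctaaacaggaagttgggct
SERPINB1 (chr6:2842007-2842113, minus strand): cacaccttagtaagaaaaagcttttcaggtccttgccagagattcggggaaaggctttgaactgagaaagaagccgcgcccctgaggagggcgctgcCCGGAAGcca

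Searched on both strands over the whole 250 bases were TATAAA, the SP1 motif GGGCGG, the AP-1 motif TGANTCA, the NF-kB-like core GGNNTTTCC, the EGR1 motif GCGNGGGCG and the ETS motif CCGGAAG. In 35116 promoters of the same length, these letters occurred in 10.7%, 42.6%, 6.57%, 5.48%, 8.41% and 8.52%, respectively. The F3 window held 2 AP-1 matches, TGAATCA from 223 to 217 and TGAGTCA from 210 to 204 bases before the start. It also held 1 NF-kB-like match from 187 to 179, 4 SP1 matches and 1 EGR1 match that overlaps an SP1 match. A TATAAA match on the opposite strand lies from 28 to 23 bases before the start, in an annotated exon that is not printed. None of the 6 motifs occurred in the 250 bases of TFPI. SERPINB1 had 1 ETS match and 2 overlapping SP1 matches, the latter in an exon. PLAUR had 1 AP-1 match, TGAGTCA from 186 to 180, and 1 EGR1 match. SERPINB5, which was not called, had 1 AP-1 match, TGAATCA from 146 to 140, and 2 SP1 matches. TFPI2, which was not tested, had 1 AP-1, 1 EGR1 and 2 SP1 matches, and SERPINE2 had 1 SP1 match. The window of PLAU held no match, and it ends at a RefSeq start at 73910610 on chromosome 10, inside the gene as GENCODE draws it. The TFPI window likewise ends at a start inside the gene, at 187554435 on chromosome 2. So do those of PLAUR, at 43670169 on chromosome 19, and SERPINE2, at 224031478 on chromosome 2. The windows of PLAU, TFPI, PLAUR and SERPINE2 lie wholly inside the gene as GENCODE draws it. For F3, SERPINB1, SERPINB5 and TFPI2 the start also lies inside the gene, but the window begins outside it. Matching letters are a description and show no binding, and a window without them says nothing about the factors.

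Of the 9 genes, 8 passed the filter on low values and 6 were called, 3 higher and 3 lower with siMTA1. Among all tested genes 18.2% were called, 6.13% higher and 12.1% lower, and nothing is read from the comparison because the genes were selected on this contrast. That split of all genes, 744 higher to 1463 lower, kept its direction under TPM (832 and 1230). It turned to 1011 and 895 under quantile normalization, 1055 and 784 under upper-quartile scaling and 1078 and 826 under median centring. The same 6 of the 9 genes were called under each of these scalings. The genes called lower were PLAU, F3 and TFPI, and the genes called higher were SERPINB1, PLAUR and SERPINE2. The median log2 difference of the 8 genes was −0.08, beside −0.05 for all tested genes. In 7 of the 8 genes the 3 control values and the 3 siMTA1 values did not overlap, which held for 39.1% of all tested genes.

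**Figure D1:**
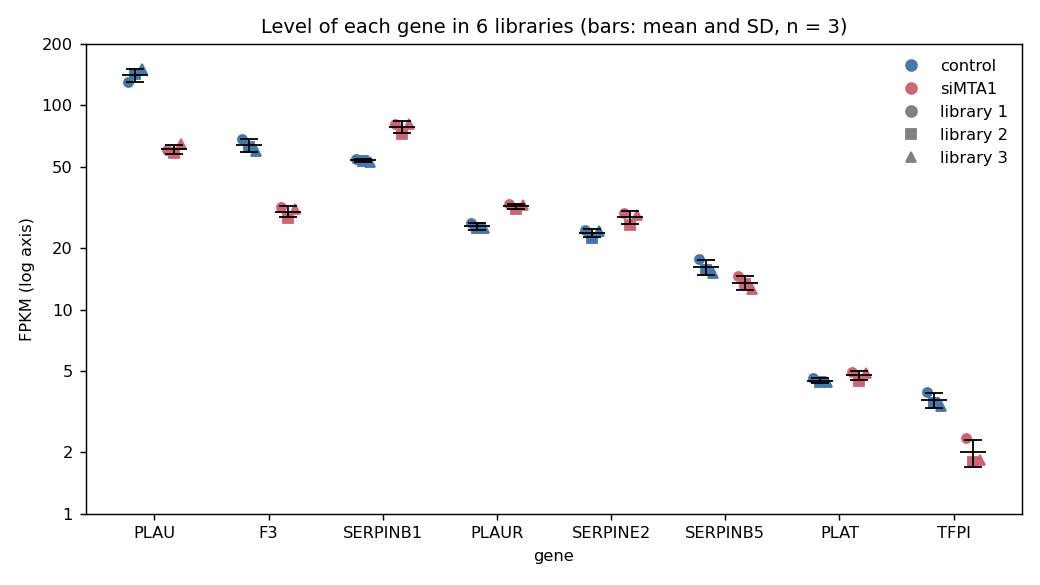
Level of 8 genes in each library, in FPKM on a log axis. Points are libraries, horizontal bars are means and whiskers SD (n = 3). PLAU, F3 and TFPI sit lower in all 3 siMTA1 libraries, SERPINB1 and PLAUR sit higher, and the 2 groups of PLAT overlap. TFPI2, listed at 0 in 5 libraries, is not drawn.

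PLAU showed the largest difference of the 9 genes. The control libraries held 130.41, 142.22 and 150.70 FPKM, and the siMTA1 libraries 60.20, 58.70 and 64.52 FPKM. Every siMTA1 library was below every control library by a wide margin. Mean levels were 141.1 ± 10.2 and 61.1 ± 3.02 FPKM (SD, n = 3 each), 43.3% of control, with a log2 difference of −1.19 (SE 0.07). In the order of tested genes from the largest fall on this scale, PLAU came at position 5. In GRCh38, PLAU (ENSG00000122861.15) is found at 73909177 to 73917497 of chromosome 10, plus strand. The gene C10orf55 overlaps it on the opposite strand over 7529 bases, at 0.18 to 0.33 FPKM in the 6 libraries, and the labels do not say whether the authors counted by strand.

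The receptor gene PLAUR moved the other way. Its product is held to the membrane by a lipid anchor. PLAUR was at 26.58, 25.04 and 25.07 FPKM in control and at 32.76, 31.05 and 32.50 FPKM with siMTA1, without overlap. The rise was small beside the fall of its ligand, to 126% of control (25.6 ± 0.88 against 32.1 ± 0.92 FPKM, SD, n = 3; log2 difference 0.32, SE 0.05). PLAUR (ENSG00000011422.11) spans 43646095 to 43670547 of chromosome 19, minus strand.

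With ligand and receptor moving apart, their ratio within a library differed more than either level. There were 4.91, 5.68 and 6.01 PLAU per PLAUR, as a ratio of FPKM, in control and 1.84, 1.89 and 1.99 with siMTA1. The ranges did not overlap, and the means were 5.53 ± 0.57 and 1.90 ± 0.07 (SD, n = 3).

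PLAT codes for tissue plasminogen activator, the other main activator of plasminogen, known best from endothelium and from its use to dissolve clots. It was at 4.63, 4.40 and 4.41 FPKM in control and at 4.93, 4.47 and 4.91 FPKM with siMTA1, and the groups overlapped. The log2 difference was 0.07 (SE 0.06), and PLAT was not called. PLAT (ENSG00000104368.17) spans 42175233 to 42207724 of chromosome 8, minus strand. In FPKM, PLAU exceeded PLAT 31.6 ± 3.08-fold in control and 12.8 ± 0.53-fold with siMTA1 (SD, n = 3). PLAU had the higher FPKM in all 6 libraries, a comparison that depends on the gene lengths used.

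Among the serpin genes SERPINB1, SERPINE2 and SERPINB5, the first had the largest difference. It codes for an intracellular inhibitor of neutrophil serine proteases such as elastase. SERPINB1 was at 54.79, 53.40 and 53.05 FPKM in control and at 81.15, 72.28 and 81.47 FPKM with siMTA1. The controls lay within a narrow band and all siMTA1 libraries were above it. SERPINB1 rose to 146% of control (53.7 ± 0.92 against 78.3 ± 5.22 FPKM, SD, n = 3; log2 difference 0.53, SE 0.06). It came at position 94 from the largest rise among the tested genes. SERPINB1 (ENSG00000021355.12) spans 2832332 to 2842006 of chromosome 6, minus strand. The ratio of PLAU to SERPINB1 in FPKM went from 2.63 ± 0.23 in control to 0.78 ± 0.04 with siMTA1. The order of the pair in FPKM was thus reversed in all 3 siMTA1 libraries.

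SERPINE2 codes for protease nexin, a secreted inhibitor of thrombin and urokinase that binds to cell surfaces and matrix. Its levels were 24.45, 22.46 and 24.31 FPKM in control and 29.67, 26.00 and 29.15 FPKM with siMTA1. All siMTA1 values were higher, with the least distance between siMTA1 library 2 and control library 1. The log2 difference was 0.24 (SE 0.07), 119% of control, and the call rested on single libraries. It ended without control library 2 (log2 difference 0.20) or 3 (0.26), without siMTA1 library 1 (0.21) or 3 (0.22), and with no filter on low values. SERPINE2 (ENSG00000135919.12) spans 223975112 to 224039319 of chromosome 2, minus strand.

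Maspin, the product of SERPINB5, has the fold of a serpin but does not inhibit proteases by the serpin mechanism. SERPINB5 was at 17.72, 15.63 and 15.19 FPKM in control and at 14.63, 13.31 and 12.66 FPKM with siMTA1. The groups did not overlap, with the least distance between siMTA1 library 1 and control library 3. With a log2 difference of −0.24 (SE 0.07), as large as that of SERPINE2 with the opposite sign, SERPINB5 was just not called. It was called without siMTA1 library 1 (log2 difference −0.29), with the filter raised to 5 FPKM and with the replicate number as a block. SERPINB5 (ENSG00000206075.13) spans 63476761 to 63505085 of chromosome 18, plus strand.

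**Figure D2:**
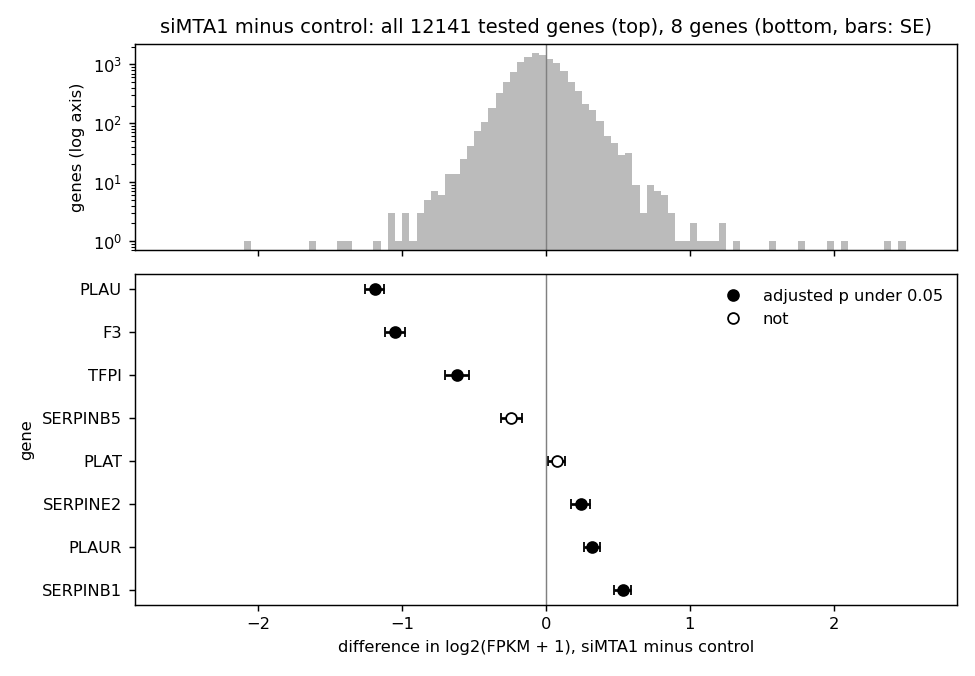
Difference in log2(FPKM + 1), siMTA1 minus control. The upper panel is the histogram of all 12141 tested genes on a log axis of counts, and the lower panel shows 8 genes with SE, filled where the adjusted p was under 0.05. PLAU at −1.19 and F3 at −1.05 lie in the sparse left tail of the histogram, whereas PLAT at 0.07 lies near its centre.

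F3 was close to PLAU in the size of its fall. Tissue factor transcript was at 68.88, 62.43 and 59.88 FPKM in control and at 31.75, 28.02 and 30.93 FPKM with siMTA1. Each siMTA1 library was well below the lowest control. Mean levels were 63.7 ± 4.64 and 30.2 ± 1.96 FPKM (SD, n = 3), 47.4% of control, with a log2 difference of −1.05 (SE 0.07), at position 8 from the largest fall. F3 (ENSG00000117525.13) spans 94529225 to 94541800 of chromosome 1, minus strand, and no other annotated gene overlaps it.

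TFPI, whose product inhibits factor Xa and the complex of tissue factor with factor VIIa, fell as well, from a much lower level. It was at 3.94, 3.47 and 3.37 FPKM in control and at 2.35, 1.80 and 1.84 FPKM with siMTA1, without overlap. That is 55.6% of control (3.59 ± 0.30 against 1.997 ± 0.31 FPKM, SD, n = 3; log2 difference −0.62, SE 0.09). The implied depth and the exonic length of the gene place between 1319 and 2578 fragments behind each value. An antisense gene, AC007319.1, overlaps it and was at or below 0.02 FPKM. TFPI (ENSG00000003436.14) spans 187464230 to 187565760 of chromosome 2, minus strand.

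Initiator and inhibitor thus both fell. F3 stood to TFPI at 17.5, 18.0 and 17.8 in control and at 13.5, 15.6 and 16.8 with siMTA1, as a ratio of FPKM. All 3 siMTA1 ratios were below the controls, with means of 17.7 ± 0.26 and 15.3 ± 1.67 (SD, n = 3).

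TFPI2, which codes for an inhibitor of plasmin and trypsin found in extracellular matrix, was listed at 0 in all 3 control libraries and in siMTA1 libraries 1 and 2, and at 0.01 FPKM in siMTA1 library 3. At the implied depth, 0.01 FPKM of this gene is about 1.59 fragments. No fold is given. TFPI2 (ENSG00000105825.11) spans 93885396 to 93890991 of chromosome 7, minus strand, within GNGT1 on the opposite strand.

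**Figure D3:**
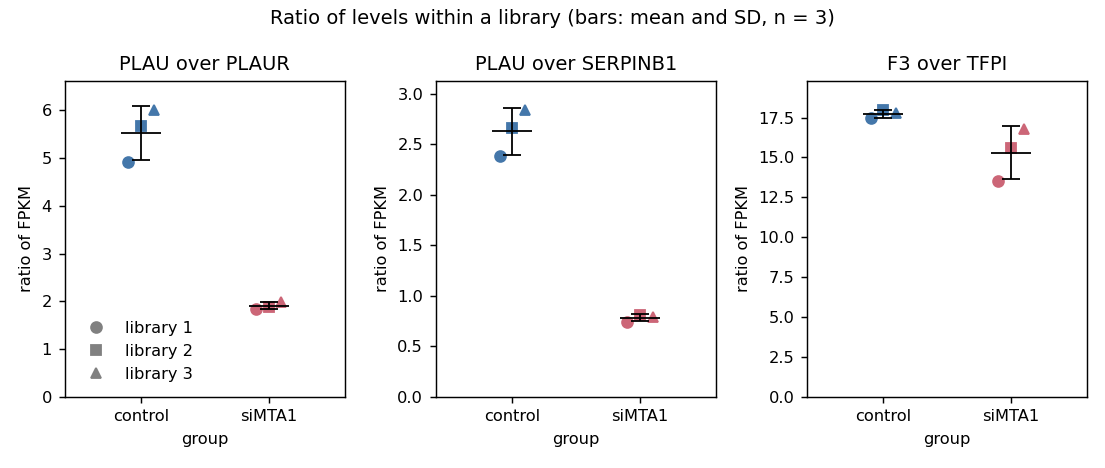
Ratios of FPKM within a library for 3 pairs of genes, axes from 0. Points are libraries, bars are mean and SD (n = 3). PLAU over PLAUR and PLAU over SERPINB1 separate widely between the groups, whereas F3 over TFPI goes from 17.7 to 15.3.

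The 9 genes were also put in order of FPKM. The gene lengths behind the FPKM could not be taken from the labels, and other lengths could change an order between genes. In control the order was PLAU, F3, SERPINB1, PLAUR, SERPINE2, SERPINB5, PLAT, TFPI and TFPI2, and the values of neighbours in this order did not overlap over the 3 libraries. With siMTA1, SERPINB1 came first and PLAU second, again without overlap. PLAUR (31.05 to 32.76 FPKM), F3 (28.02 to 31.75 FPKM) and SERPINE2 (26.00 to 29.67 FPKM) then followed with overlapping ranges, so tissue factor could no longer be ranked apart from either neighbour. SERPINB5, PLAT, TFPI and TFPI2 kept their positions.

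Libraries of a group differed from each other in a shared way over these genes. Control library 1 had the highest value of its group in 7 of the 8 tested genes, all but PLAU, which was lowest there, while over all tested genes it was highest in 38.6%. In the siMTA1 group, library 2 had the lowest value in 7 of the 8 genes, all but SERPINB5, and in 38.2% of all tested genes. Library 1 of that group had the highest value in 6 of the 8 genes, and in 32.7% of all tested genes. Control library 1 had the lowest implied depth and siMTA1 library 2 the highest of the 6 libraries. The part of depth in this shared order was not tested. Without control library 1, and likewise without siMTA1 library 2, the same 6 genes were called. Over all 6 single omissions, log2 differences were −1.25 to −1.14 for PLAU, −1.09 to −0.99 for F3 and −0.70 to −0.57 for TFPI. They were 0.50 to 0.59 for SERPINB1, 0.30 to 0.35 for PLAUR and 0.20 to 0.30 for SERPINE2. These 2 omissions are among the 6 and gave 1 end of each range. Leaving out control library 1 gave −1.25 for PLAU, −0.99 for F3, −0.57 for TFPI and 0.35 for PLAUR. Leaving out siMTA1 library 2 gave 0.59 for SERPINB1 and 0.30 for SERPINE2.

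The genes whose levels followed PLAU most closely over the 6 libraries, among 7086 genes averaging 5 FPKM or more, included FBXO2, ZBED2, CMTM7 and ABCC4, with Pearson's r from 0.997 to 0.999. All genes share the libraries, and 3 of the 6 points belong to each group, so the difference between groups enters every r. Among these 4 the log2 differences ranged from −0.15 for FBXO2, which was not called, to −0.89 for ZBED2. ZBED2 was at 9.79, 10.46 and 10.50 FPKM in control and at 4.90, 4.84 and 5.42 FPKM with siMTA1. Its lowest control was library 1 as for PLAU, a likeness that the choice by r favours.

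Nearest to F3 by the same measure were ARHGAP29, G3BP1, CXCL1, CYR61 and SLC1A3, all with r above 0.99. ARHGAP29, a GTPase-activating protein gene for RHOA, was at 45.88, 41.77 and 41.47 FPKM in control and at 25.60, 23.11 and 25.17 FPKM with siMTA1. The chemokine gene CXCL1 was at 14.59, 12.01 and 10.22 FPKM in control and at 3.80, 2.86 and 3.36 FPKM with siMTA1. In both, as in F3, control library 1 was the highest and siMTA1 library 2 the lowest of its group. Choosing genes by r over these libraries favours such a shared order. CYR61, which codes for a matrix-associated ligand of integrins, had a log2 difference of −0.36 (SE 0.06, limma adjusted p = 0.00403).

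Other genes of the pathways were counted in 8 lists, which were drawn up with earlier results of these data known. Of their 153 genes, 74 were tested and 32 called, 19 higher and 13 lower, with a median log2 difference of 0.04. That is 43.2% of those tested, beside 18.2% of all tested genes (6.13% higher and 12.1% lower). These shares stand beside the count of each list below. Nothing is read from the comparison, because the lists were drawn up with those earlier results known. With no filter on low values 20 were called. The 13 calls that ended were those of GGCX, F12, GAS6, F2RL1, SERPINI1, SERPINB9, PRSS22, TIMP1, CTSB, CTSL, TIMP3, RELB and ETV4, and MMP1 was called in addition.

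For plasminogen activation and clearance, 12 of 22 genes were tested, 2 were higher and 2 lower, with a median of 0.06. S100A10, part of a plasminogen receptor with annexin A2, rose from 58.0 ± 3.49 to 86.8 ± 3.05 FPKM (SD, n = 3; limma adjusted p = 0.000462). Its partner ANXA2 was at 910.9 ± 16.9 and 870.3 ± 21.6 FPKM (log2 difference −0.07, limma adjusted p = 0.408). ENO1, an enolase that also binds plasminogen on the cell surface, had a log2 difference of 0.14 (limma adjusted p = 0.108), and was called under quantile normalization (limma adjusted p = 0.0270) and median centring (limma adjusted p = 0.0480), out of a range of 0.0270 to 0.464 over all alternatives. THBS1, which codes for the matrix protein thrombospondin, fell to 53.4% and SERPINA5, which codes for an inhibitor of protein C and urokinase, to 66.1% of control. Plasminogen itself (PLG) was listed at 0 in all 6 libraries. SERPINB2, which codes for a serpin that inhibits urokinase, stayed at or below 0.05 FPKM, and LRP1, a large endocytic receptor, at 0.44 to 0.76 FPKM.

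In the list of coagulation factors and anticoagulants 10 of 28 genes were tested, 2 were higher and 3 lower, with a median of −0.12. PROCR, the endothelial receptor of protein C, had the highest FPKM of those called. It was at 56.83, 53.20 and 51.09 FPKM in control and 40.13, 38.21 and 42.02 FPKM with siMTA1. It fell without overlap (log2 difference −0.41, SE 0.06, limma adjusted p = 0.00299). GAS6, a vitamin K-dependent ligand of receptor tyrosine kinases, fell from 22.9 ± 1.69 to 17.4 ± 1.23 FPKM (SD, n = 3; limma adjusted p = 0.00854). F10, the gene of the zymogen that tissue factor activates, rose from 1.12 ± 0.17 to 2.22 ± 0.28 FPKM, a low level at which the log2(FPKM + 1) scale understates the fold. The calls of F12 (log2 difference −0.32) and GGCX (0.28), the carboxylase of vitamin K-dependent proteins, were less firm. For F12 the call ended without any 1 library except control library 1, and also under quantile normalization, upper-quartile scaling and median centring. For GGCX it ended without control library 1 or 2 and without siMTA1 library 2 or 3. Over the 6 omissions the log2 difference lay between −0.41 and −0.25 for F12 and between 0.24 and 0.32 for GGCX. F7, whose product is the ligand of tissue factor, was between 0 and 0.07 FPKM and thrombomodulin (THBD) between 0.08 and 0.16 FPKM.

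Protease-activated receptor genes numbered 4, of which 2 were tested, with a median of 0.23, and F2RL1, whose product is cleaved by trypsin-like proteases and by the tissue factor complex, was called. It rose from 32.9 ± 1.47 to 40.2 ± 2.30 FPKM (SD, n = 3; log2 difference 0.28, limma adjusted p = 0.0148). The call ended without control library 2 (log2 difference 0.25, limma adjusted p = 0.0699, out of 0.00705 to 0.0699 over all alternatives). The thrombin receptor gene F2R was at 9.78, 9.46 and 9.93 FPKM in control and 11.55, 10.30 and 11.34 FPKM with siMTA1. F2R did not pass (log2 difference 0.17, limma adjusted p = 0.0820), but passed under quantile normalization (limma adjusted p = 0.0308), upper-quartile scaling (limma adjusted p = 0.0339) and median centring (limma adjusted p = 0.0396). It also passed with the replicate number as a block (limma adjusted p = 0.0455), out of 0.0308 to 0.230 over all alternatives.

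Of 31 other serpins 10 were tested, of which 3 were higher and 2 lower, with a median of 0.07. SERPINI1 (log2 difference 0.32) and SERPINB9 (0.23), an inhibitor of granzyme B, were among those called higher. The SERPINB9 call ended without any 1 library except siMTA1 library 2, with log2 differences of 0.17 to 0.29 over the 6 omissions, and also without the trend. That of SERPINI1 ended without siMTA1 library 2 (log2 difference 0.28). A row labelled SERPINA3, 1 of 2 rows with that symbol, was called lower (log2 difference −0.77). Its identifier is named AL049839.2 in GENCODE 29. This call, counted as 1 of the 2 lower, is therefore not shown to be one of SERPINA3 itself. Of the other Kunitz inhibitors, 4 of 10 were tested, with a median of 0.10, and APLP2 rose (log2 difference 0.32, SE 0.06, limma adjusted p = 0.00755). SPINT1 and SPINT2, inhibitors of matriptase and hepsin, had log2 differences of 0.20 and 0.01 and were not called (limma adjusted p = 0.116 and 0.920). For SPINT2 the sign turned without control library 1 or siMTA1 library 3.

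Membrane and secreted serine proteases included 5 genes called lower and 0 called higher by limma among 9 tested, beside 12.1% lower and 6.13% higher of all tested genes, with a median of −0.49. At an unadjusted p under 0.05, 1 gene (ST14) was higher. Of the 5, 4 were kallikrein-related peptidase genes, KLK7, KLK8, KLK10 and KLK5, secreted trypsin- and chymotrypsin-like proteases coded in 1 cluster. KLK7 was at 13.14, 11.75 and 12.65 FPKM in control and at 8.28, 7.43 and 8.16 FPKM with siMTA1 (log2 difference −0.59, SE 0.07, limma adjusted p = 0.000572). KLK8 fell to 67.4%, KLK10 to 67.4% and KLK5 to 54.1% of control, while KLK6 was at 18.1 ± 2.51 and 16.2 ± 0.64 FPKM (SD, n = 3) and was not called. The fifth was PRSS22, a tryptase-like gene, at 66.7% of control. ST14, which codes for matriptase, an activator of urokinase, was at 45.18, 49.87 and 50.81 FPKM in control and 53.37, 55.41 and 58.65 FPKM with siMTA1. It was not called (log2 difference 0.20, limma adjusted p = 0.0602). Under TPM (limma adjusted p = 0.0409), quantile normalization (limma adjusted p = 0.0328), upper-quartile scaling (limma adjusted p = 0.0351), median centring (limma adjusted p = 0.0307) and the filter raised to 5 FPKM (limma adjusted p = 0.0473) it was called higher. It was also called with the replicate number as a block (limma adjusted p = 0.0219), out of 0.0219 to 0.170 over all alternatives.

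Matrix proteases and their inhibitors had 4 genes called higher and 0 lower by limma among 14 tested, with a median of 0.04, and 0 were lower at an unadjusted p under 0.05. TIMP1, an inhibitor of matrix metalloproteinases, rose from 24.8 ± 4.10 to 37.1 ± 2.30 FPKM (SD, n = 3; log2 difference 0.57, limma adjusted p = 0.00680). The cathepsin genes CTSB and CTSL had log2 differences of 0.36 and 0.23 and TIMP3 of 0.25. The CTSL call ended without control library 2 (log2 difference 0.24) or siMTA1 library 2 (0.21), and that of TIMP3 without any 1 library except siMTA1 library 2 (log2 differences of 0.21 to 0.29 over the 6 omissions). MMP14, a membrane-bound collagenase, was at 9.56 ± 0.63 and 9.77 ± 0.33 FPKM and was not called (log2 difference 0.03, limma adjusted p = 0.769), with the sign turned without control library 1.

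Transcription factors of families whose motifs were searched upstream were called higher in 7 of 16 tested genes and lower in 2, beside 6.13% and 12.1% of all tested genes, with a median of 0.17. EGR1 was at 8.37, 8.69 and 10.46 FPKM in control and 22.12, 19.93 and 21.88 FPKM with siMTA1, and the AP-1 genes FOS, FOSL2, FOSL1 and JUN rose with log2 differences of 0.58, 0.50, 0.36 and 0.32. ETS2 and ETV4 were higher too (0.31 and 0.35). The ETV4 call ended without control library 2 (log2 difference 0.37) and without siMTA1 library 1 (0.36), 2 (0.37) or 3 (0.31). NFKB1 and RELB, subunits of NF-kB, were lower (−0.38 and −0.32), the latter not without control library 2 (log2 difference −0.28, limma adjusted p = 0.0526, out of 0.00592 to 0.0561 over all alternatives). RELA was not called (log2 difference 0.11, limma adjusted p = 0.307). The part of these factors in the levels of PLAU, F3 or PLAUR was not tested.

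**Figure D4:**
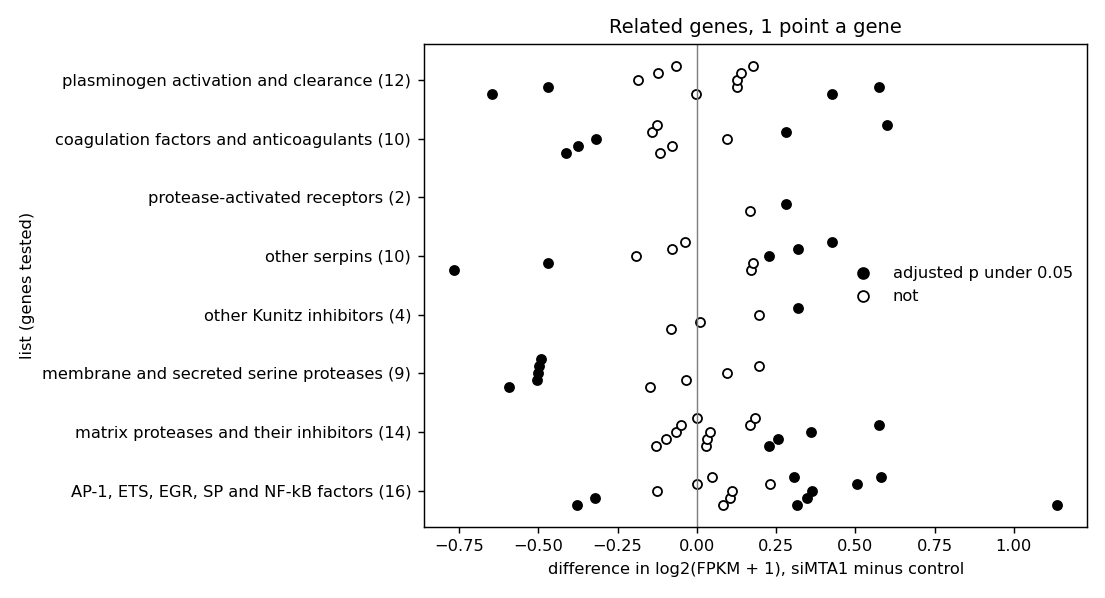
Difference in log2(FPKM + 1), siMTA1 minus control, of the tested genes of 8 lists, 1 point a gene, filled where the adjusted p was under 0.05 and spread vertically for legibility. The number of tested genes stands after each name. Serine proteases show 5 filled points to the left of 0 and 0 to the right, and matrix proteases show 4 to the right and 0 to the left.

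Markers of other cell types that can make these proteins were low. Endothelial markers summed to 14.7 to 16.3 FPKM in control and 15.9 to 16.6 FPKM with siMTA1, of which EGFL7 gave 13.47 to 14.68 FPKM. Those of fibroblasts summed to 1.94 to 2.01 and 2.19 to 2.78 FPKM, with DCN, THY1 and PDGFRA listed at 0, and those of leukocytes and platelets to 0.79 to 0.86 and 0.91 to 1.12 FPKM. In these lists 3 genes were tested and 0 called by limma, while ESAM and COL1A1 had an unadjusted p under 0.05 (0.0230 and 0.0147, both higher with siMTA1). Under upper-quartile scaling and under median centring 1 fibroblast marker was called higher. Colon epithelial markers summed to 6621.1 to 6938.8 FPKM in control and to 5727.5 to 6374.4 FPKM with siMTA1. Among them CDH1 rose (log2 difference 0.27), whereas KRT8 and KRT18 fell (−0.29 and −0.25). The KRT8 call ended without control library 2 (−0.28) and that of KRT18 without control library 2 or 3 or siMTA1 library 1 or 2 (−0.26 to −0.19). Upper-quartile scaling and the fit with no filter on low values ended both, and median centring that of KRT18. Their part in the results above was not tested.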

How the data were processed

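The authors deposited 1 table of FPKM, per its file name, for 36651 genes in 6 libraries, to 2 decimals. The submitters' processing notes name cutadapt, TopHat2, edgeR and the build GRCh38. Counting, strand setting, annotation release and gene lengths could not be taken from the labels. Columns were assigned by name, 3 to each group. The 12141 genes averaging 1 FPKM or more were tested with limma 3.58.1 in R 4.3.3 on log2(FPKM + 1), with an intensity trend and no covariates, two-sided, with Benjamini-Hochberg adjustment over all tested genes. The pseudocount of 1 understates changes of low genes. The fit was tested on simulated data. The 9 genes and all lists were chosen with earlier results of these data known. Named were the 9 genes, MTA1, in each list up to 8 called genes by adjusted p, 16 genes fixed by name, and the 5 genes nearest to PLAU and to F3. Some of these are not reported here. Further members of a list are named as examples and were chosen after their values were seen. Places and exonic lengths came from GENCODE 29 (35749 identifiers matched). Upstream sequence came from RefSeq and was taken for 8 of the 9 genes, all but PLAT. In genes shorter than 150 bases, 95.5% to 97.4% of the low values were whole fragments (tolerance 0.05 beyond rounding) at the implied depth. Alternatives were other pseudocounts, filters and scalings, no trend, the replicate number as a block, each library left out, and median centring, added after seeing the data.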

Additional observations from a re-analysis of the deposited data

How the results depend on the processing

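Among 16 alternatives, the 9 genes gave 5 to 7 calls, beside 6. PLAU, F3, TFPI, SERPINB1 and PLAUR kept their direction and their call under each in which they were tested. TFPI was below the filter where a mean of 5 FPKM was required. SERPINE2 and SERPINB5 were the genes whose call changed. Over all genes 2207 were called, 744 higher and 1463 lower. With no filter on low values 676 were called over all genes and 20, in place of 32, in the 8 pathway lists. Leaving out 1 library gave 1046 to 1773 calls over all genes, the lowest without control library 2 and 1066 without siMTA1 library 2. The split of higher to lower depended on the scaling, with 1011 to 895 under quantile normalization, 1055 to 784 under upper-quartile scaling and 1078 to 826 under median centring. Under TPM it was 832 to 1230, in the direction of the main fit, and with no filter 297 to 379. The log2 difference of SPINT2 reversed to −0.0233 without control library 1 and to −0.0072 without siMTA1 library 3 (−0.0233 to 0.0490 over the 6 omissions). That of MMP14 reversed to −0.0146 without control library 1 (−0.0146 to 0.0717). Of 931 values of single genes under an alternative, 857 kept direction and side of the threshold, 55 lost and 16 gained a call, and 3 changed direction. The cause was not tested. Libraries of the same number correlated in their deviations from the group mean with r of 0.33, 0.02 and 0.22 over 12141 genes. Between libraries of different numbers r was −0.28 to 0.07. The labels state no pairing and the main fit took none, but these values do not settle whether the numbers pair the libraries. With the replicate number as a block, 3031 genes, 7 of the 9 genes (SERPINB5 added) and 39 in the lists were called, and MTA1 stayed at −0.54. Not every library correlated best with its own number: control library 2 did so with siMTA1 library 3 (r of 0.07, against 0.02). FPKM carry no counts, so no counting interval is given.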

Other observations

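The gene whose levels followed F3 most closely, ARHGAP29, is also its neighbour on chromosome 1. It lies from 94148988 to 94275068, on the same strand as F3, with 254157 bases between them. Tested genes within 500 kb of F3 were 5, and this window was chosen after the data were seen. ARHGAP29 fell from 43.0 ± 2.46 to 24.6 ± 1.33 FPKM (SD, n = 3; log2 difference −0.78, SE 0.06, limma adjusted p = 9.89e-05). ABCD3, which lies between ARHGAP29 and F3 at 10559 bases from F3, was at 13.1 ± 1.05 and 11.3 ± 0.67 FPKM and did not pass (log2 difference −0.20, limma adjusted p = 0.0768). On the other side, LINC01057, SLC44A3 and CNN3 did not pass either, with log2 differences of 0.32, −0.06 and 0.10. The fall was therefore called in F3 and ARHGAP29 and not in the 4 other tested genes of the window.

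Around the other genes the same window held calls in both directions or few calls. Among all tested genes 18.2% were called, 6.13% higher and 12.1% lower. Near PLAU 3 of 14 tested genes were higher and 3 lower, all with log2 differences between −0.25 and 0.34. Near SERPINB1, on chromosome 6, 4 of 12 were higher and 1 lower, among them SERPINB9 (higher), whereas SERPINB6, in the same serpin cluster, was not called (log2 difference −0.19, limma adjusted p = 0.0534). SERPINB6 was called with the filter raised to 5 FPKM (limma adjusted p = 0.0438), without siMTA1 library 3 (limma adjusted p = 0.0391) and with the replicate number as a block (limma adjusted p = 0.0397). Near PLAUR 1 of 17 was higher, and near SERPINE2 1 of 5 was higher and 1 lower. The 1 tested gene near TFPI2 was not called, and the window of TFPI held no tested gene. Near SERPINB5 0 of 4 and near PLAT 0 of 7 were called by limma, and at an unadjusted p under 0.05 these counts were 1 (VPS4B) and 2 (KAT6A and SLC20A2).

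MMP1, an interstitial collagenase gene below the filter on low values, was at 0.21, 0.30 and 0.37 FPKM in control and at 0.99, 1.02 and 0.94 FPKM with siMTA1. MMP7, another secreted metalloproteinase gene below the filter, was at 0.37, 0.44 and 0.50 FPKM in control and at 0.19, 0.15 and 0.30 FPKM with siMTA1. Both were outside the genes tested and were chosen after their values were seen. With no filter on low values, MMP1 was called higher (log2 difference 0.62, SE 0.07, limma adjusted p = 0.0207) and MMP7 did not pass (log2 difference −0.24, limma adjusted p = 0.127).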
